A study of Mus musculus with 8 samples.

Results

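Collagen genes were followed across 8 mouse RNA libraries. Every gene whose symbol has the form Col, number, a, number was taken as a member, which gave 44 of the 29713 genes in the tables. The rule uses the symbol alone and no measured value. The study set brain regions, glia and neurons beside embryonic cell types, and every one of its 8 groups is a lone library. C57 mice gave the 3 brain regions (cerebellum, cortex and hippocampus), and C57 brain gave the libraries of glia and of neuron. Mouse embryonic fibroblasts (MEF) of the strains ICR and OG2 were made from embryos at day 13.5, and fibroblasts are the classical collagen-secreting cells of connective tissue. The last library was labelled R1 ESC, for embryonic stem cells of the inner cell mass from a 129X1 x 129S1 cross, and is called the library labelled R1 ESC below. How neurons and glia were isolated, whether they were cultured, and the age and sex of the animals cannot be read from the labels. A lone library per group allows no test between groups, so folds are given without p-values. In bulk RNA, fewer cells of a type and less RNA per cell cannot be told apart.

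Collagens are extracellular proteins built from chains in which glycine recurs at a fixed spacing as the opening residue of each triplet, which lets the chains wind into a helix. Fibrillar collagens (types I, II, III, V, XI, XXIV and XXVII) form the cross-striated fibrils of skin, bone and cartilage, type IV collagens form the sheet of basement membranes, and type VI collagens form beaded filaments at the cell surface. The FACIT collagens (fibril-associated collagens with interrupted helices) decorate fibrils, the short-chain collagens (types VIII and X) form hexagonal networks, the multiplexins (types XV and XVIII) lie in vessel and epithelial basement membranes, and the transmembrane collagens (types XIII, XVII, XXIII and XXV) sit in the plasma membrane. Types VII, XXVI and XXVIII fit none of these classes and are grouped as other. In brain, collagen protein is largely found in vessel basement membranes and meninges, while neurons make several non-fibrillar types.

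The repeat is visible in the coding sequences, which are shown here because the 4 genes below carry the main differences and stand for 3 of the classes. Each line gives 126 coding bases from GENCODE release M21 (GRCm38, mm10), 5′ to 3′ on the gene's strand, beginning 8 triplets before the end of the gene's longest uninterrupted run. Capitals mark glycine codons (GGN) that open a triplet within a run, and other glycine codons are in lower case. Col1a1 lies at chr11:94936224-94953042 on the plus strand, with the stretch at chr11:94950178-94950389 over 2 exons. Col5a2 lies at chr1:45374321-45503282 on the minus strand, with the stretch at chr1:45380184-45382133 over 2 exons. Col4a6 lies at chrX:141165403-141474076 on the minus strand, with the stretch at chrX:141188326-141189383 over 2 exons. Col25a1 lies at chr3:130131501-130599877 on the plus strand, with the stretch at chr3:130519795-130535433 over 5 exons.
Col1a1: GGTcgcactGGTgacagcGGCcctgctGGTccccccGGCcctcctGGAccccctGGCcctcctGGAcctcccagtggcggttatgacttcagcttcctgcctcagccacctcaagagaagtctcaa
Col5a2: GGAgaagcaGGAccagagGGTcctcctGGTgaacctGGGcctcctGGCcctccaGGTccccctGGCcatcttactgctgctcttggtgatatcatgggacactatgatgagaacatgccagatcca
Col4a6: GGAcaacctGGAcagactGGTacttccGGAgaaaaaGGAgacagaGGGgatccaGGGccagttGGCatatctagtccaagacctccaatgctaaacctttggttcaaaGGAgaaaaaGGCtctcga
Col25a1: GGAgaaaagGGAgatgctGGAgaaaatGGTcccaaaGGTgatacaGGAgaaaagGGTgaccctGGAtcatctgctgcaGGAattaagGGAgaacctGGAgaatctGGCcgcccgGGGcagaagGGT
In the fibrillar chains the run ended and did not resume within the stretch, whereas in Col4a6 and Col25a1 it broke off and began again. The longest run was 338 triplets in Col1a1 and 339 in Col5a2, but 45 in Col4a6 and 40 in Col25a1. Across the family the longest run measured 216 to 344 triplets in the 11 fibrillar genes and 39 to 66 in the 6 type IV genes, which were broken into 22 to 27 runs of at least 5 triplets. All 44 members had a run of at least 20 triplets, against 19 of 20991 other coding genes (0.0905%).

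The libraries differed in depth and composition. Total expected counts, the reads RSEM assigns to genes, spanned 2147004 (the library labelled R1 ESC) to 5864673 (glia). Levels are in TPM, a share of all transcripts that is scaled by gene length. Ribosomal protein genes took 4.53% to 5.57% of TPM in the brain regions, 7.33% in glia, 17.6% in neuron, 19.8% and 20.8% in the fibroblasts and 48.9% in the library labelled R1 ESC, which lowers the TPM of all other genes there by arithmetic. Neuronal markers were high in the 3 brain regions and neuron (summed TPM of 11 markers, 5693 to 8662) and low elsewhere (128 to 461). Of the neuron sum of 5693, Stmn2 alone gave 2852 TPM. The median log2 difference of the 11 markers between neuron and the brain regions was -1.22, beside -1.07 over genes averaging at least 10 TPM. The 10 astrocyte markers summed to 3143 TPM in glia and 2830 to 6036 in the brain regions, against 428 in neuron and 23.1 to 201 in the fibroblasts and the library labelled R1 ESC. In the library labelled R1 ESC, 5 of 10 pluripotency markers were at 0 counts, Pou5f1 stood at 20.2 TPM and Nanog at 10.3, so the data bear out that label only in part.

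The fibroblast libraries held most of the collagen transcripts. The 44 genes summed to 11445 TPM in ICR MEF and 9423 in OG2 MEF, to 1838 in glia, and to 305.5 in cerebellum, 341.8 in cortex, 279.5 in hippocampus, 340.5 in the library labelled R1 ESC and 99.0 in neuron. Collagens thus made up 1.14% and 0.942% of TPM in the fibroblasts, 0.184% in glia, 0.0280% to 0.0342% in the brain regions and 0.00990% in neuron. As shares of counts, which weight long transcripts more, these were 3.63% and 3.13%, 0.513%, 0.0520% to 0.0641% and 0.0298%. The library labelled R1 ESC stood beside the brain regions by TPM, at 0.0340%, and above them by counts, at 0.218%. Between 18 and 19 members reached 10 TPM in glia and the fibroblasts, 7 to 12 in the brain regions, 8 in the library labelled R1 ESC and 2 in neuron.

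The make-up differed as well as the amount. Fibrillar collagens were 76.3% of the collagen TPM in ICR MEF and 80.6% in OG2 MEF, 46.4% in the library labelled R1 ESC, 37.9% in glia and 14.0% to 24.3% in the brain regions and neuron. Type IV collagens were 29.2% in glia, against 6.12% and 6.13% in the fibroblasts and 7.14% to 19.6% in the brain regions. Transmembrane collagens were 16.2% in cortex and 17.2% in hippocampus, 4.95% in cerebellum, 5.56% in neuron and under 0.1% in the other libraries. In cerebellum the FACIT collagens were 37.0% and the multiplexins 19.4%. The leading genes followed suit: Col1a1, Col1a2 and Col3a1 held 62.3% and 67.3% of the collagen TPM in the fibroblasts, Col5a2, Col4a1 and Col8a1 held 41.9% in glia, Col9a3, Col18a1 and Col16a1 held 43.1% in cerebellum, and Col25a1, Col4a2 and Col16a1 held 32.7% in hippocampus. Col16a1 rests on 56 counts in cerebellum and 64 in hippocampus, but had 98 at its cortex level of 9.64 TPM. Its assigned length differed between libraries and the level of Col9a3 is uncertain, as given below, which also limits the FACIT share in cerebellum.

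**Figure D1:**
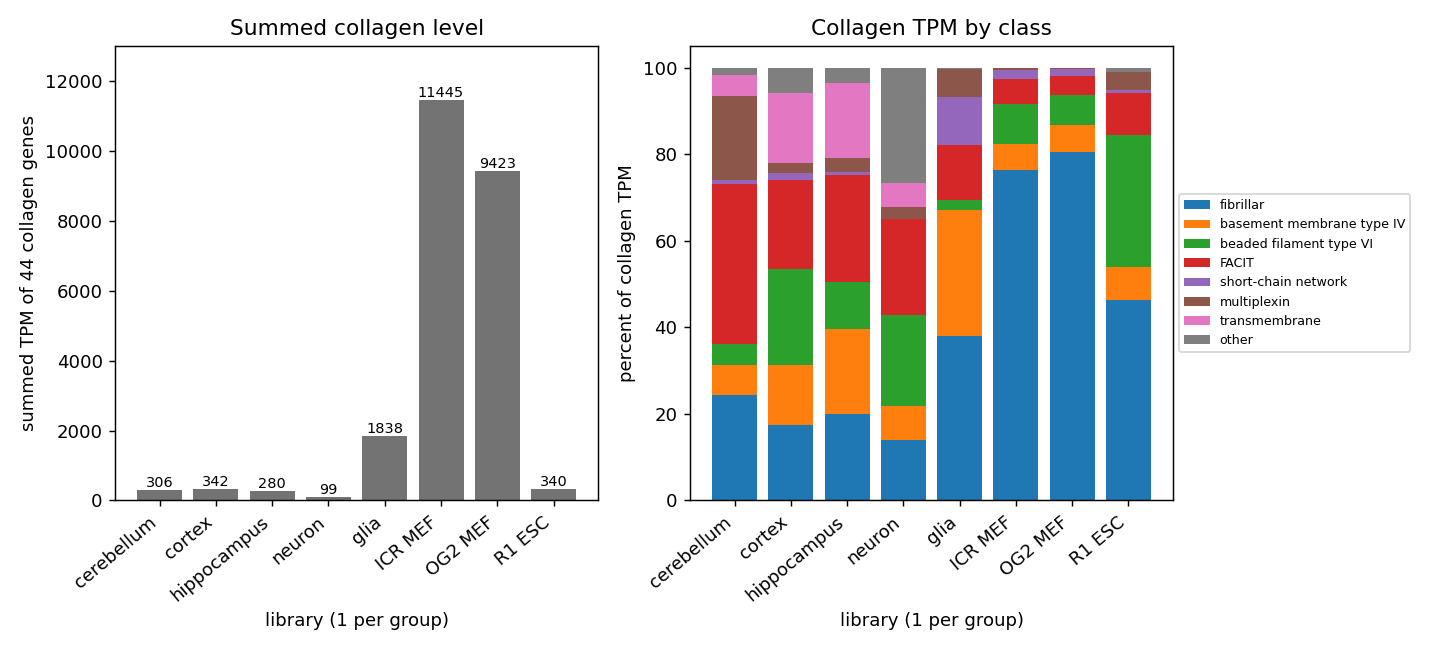
Left, summed TPM of the 44 collagen genes in each library (bars, 1 library per group, axis from 0). Right, percent of that sum held by each of 8 collagen classes. The fibroblast libraries reach 11445 and 9423 TPM and are mostly fibrillar (76.3% and 80.6%), and glia has the highest type IV share (29.2%).

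**Figure D2:**
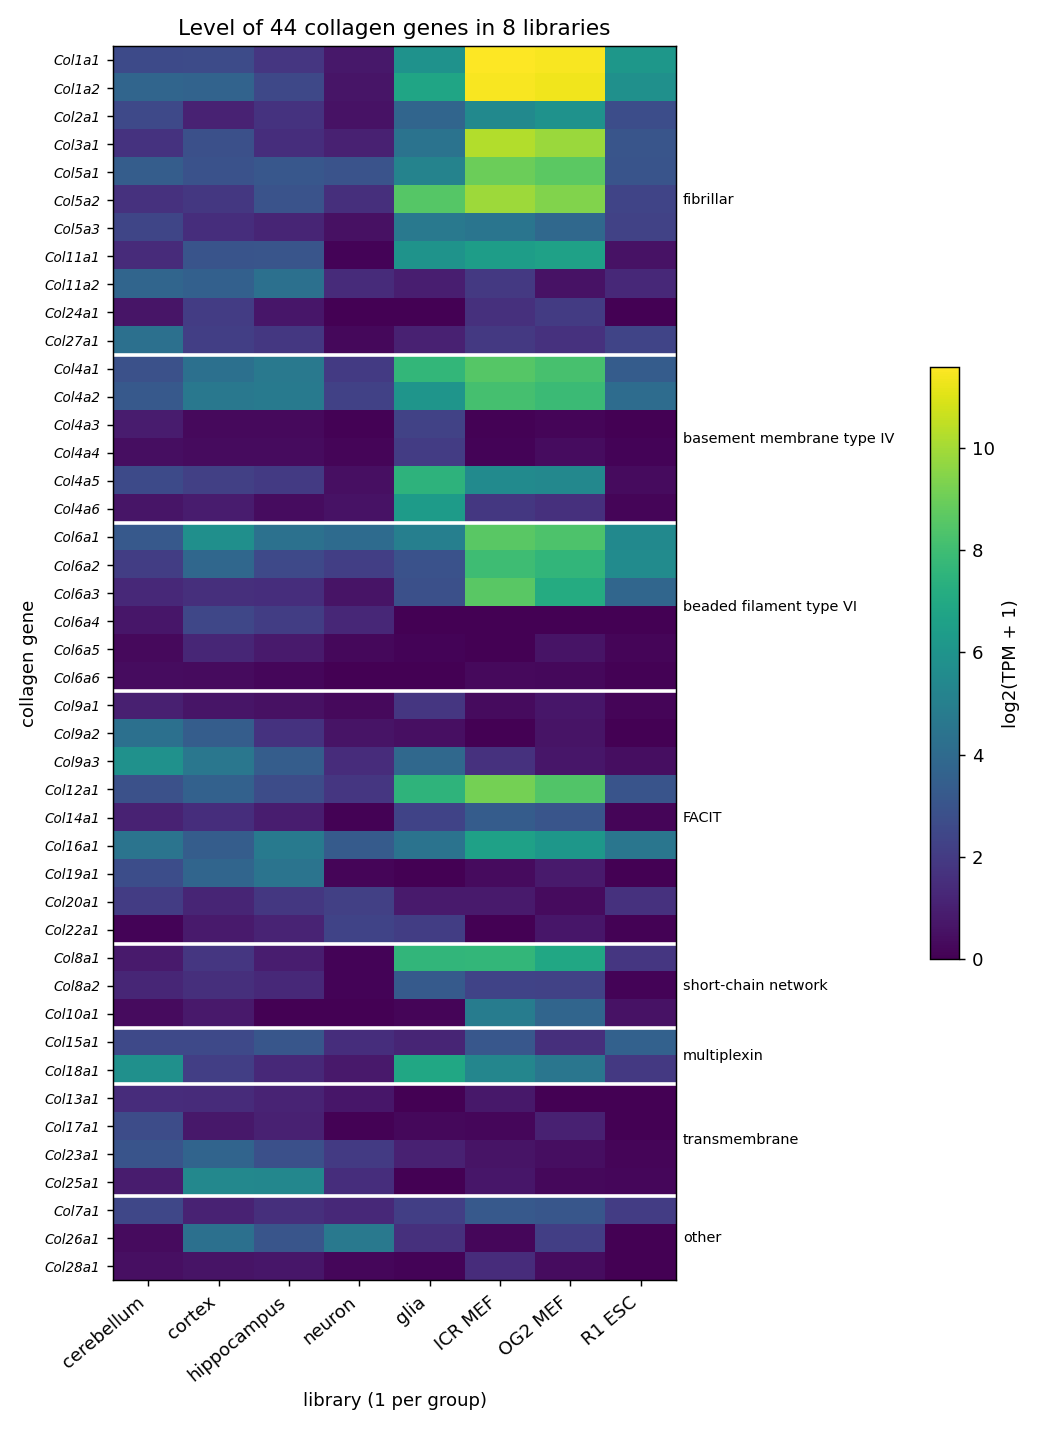
Level of each collagen gene (log2 of TPM with 1 added, colour) in each library, with genes ordered by class. Col1a1, Col1a2 and Col3a1 are brightest in the fibroblasts, Col4a5 and Col4a6 are brightest in glia, and Col25a1 stands out in cortex and hippocampus.

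Embryonic fibroblasts against the brain regions addressed which collagens stand higher in a connective tissue cell than in brain tissue. The sides also differ in strain and in cells from embryos against tissue, which cannot be told apart from cell type here. A gene was called higher when all libraries on its side reached 10 TPM and the least of them exceeded the greatest of the opposite side by 4-fold or more, with 1 TPM added to each. By this rule 16 collagens were higher in both fibroblast libraries than in all 3 brain regions, against 2.41% of all 29713 genes and 5.68% of the genes that reached 10 TPM in any of these libraries. No collagen was lower, against 6.14% and 14.5%. Such a call needs 10 TPM in all 3 brain regions, which Col11a2 alone of the members reached. The floor thus left almost no room for a lower collagen, and its absence says little. The median difference of log2 levels was 1.01 over the 44 collagens and -0.68 over the genes that averaged at least 10 TPM. The latter lay between -0.69 and -0.05 under the 5 other scalings, and the collagen median kept its sign under all 5. Without cerebellum 2 members were called lower (Col19a1 and Col25a1), without hippocampus 1 (Col9a3) and without ICR MEF 1 (Col11a2), beside 8.03%, 6.65% and 7.16% of all genes.

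Type I and type III collagens, the bulk proteins of skin and tendon fibrils, showed the highest folds. Col1a1 stood at 3058 TPM in ICR MEF and 2853 in OG2 MEF, against 4.99 in cerebellum, 5.19 in cortex and 2.52 in hippocampus. Col1a2, the partner chain of type I, stood at 2865 and 2571 TPM against 12.8, 11.7 and 4.63. Col3a1 stood at 1206 and 920.5 TPM against 2.27, 6.07 and 1.90. For each gene the fibroblast levels lay above every brain level without overlap, as the calling rule requires of a called gene. Taken between the nearest libraries, the fold in TPM was 549 for Col1a1 (95% exact interval 417 to 740.3), 202 for Col1a2 (171 to 239) and 152 for Col3a1 (112 to 211). These intervals, here and below, cover counting error in the expected counts only, not variation between animals or cultures.

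The other 4 called fibrillar genes were Col5a1, Col5a2, Col11a1 and Col2a1. Col5a2 and Col5a1, chains of the type V collagen that nucleates type I fibrils, stood at 941.8 and 662.9 TPM and at 500.1 and 406.2 TPM in ICR and OG2 MEF. In the brain regions Col5a2 ran from 2.13 to 6.81 TPM and Col5a1 from 6.48 to 9.76, giving folds of 97.3 and 41.6. Col11a1, a type XI chain best known from cartilage, was 12.05-fold higher, and Col2a1, the main cartilage chain, was 8.95-fold higher (43.6 and 58.9 TPM against 1.15 to 4.86). Of the 4 remaining fibrillar genes, Col5a3, Col24a1 and Col27a1 were not called, with 21.6, 2.0 and 2.74 TPM in ICR MEF. Col11a2, the partner of Col11a1, stood at 2.75 and 0.46 TPM in the fibroblasts and at 10.9 to 18.1 in the brain regions.

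Outside the fibrils, 3 type IV, 3 type VI, 2 short-chain genes and 1 FACIT gene were called. Col4a1 and Col4a2, the pair found in nearly all basement membranes, were 11.9-fold and 9.17-fold higher, at 367 and 285 TPM in ICR MEF against at most 24.9 and 26.0 in a brain region. Col4a5, a chain of kidney and smooth muscle basement membranes, was 7.94-fold higher. Col6a3, the largest type VI chain, was 70.5-fold higher, Col6a2 was 14.3-fold and Col6a1 6.02-fold, the last from a cortex level of 53.6 TPM. Col12a1, a FACIT collagen of tendon and fascia, stood at 568 and 342 TPM against 5.54 to 11.2 in brain, a fold of 30.6. Col8a1, a network collagen of vessel walls and cornea, was 46.8-fold higher. Col10a1, the marker of hypertrophic cartilage, was 17.3-fold higher (27.7 and 12.8 TPM), and it lost its call when 5 TPM was added in place of 1.

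The fibroblast libraries resembled each other closely. No collagen was called between them, where 0.128% of all genes (0.437% of those reaching 10 TPM) were called higher in ICR MEF and 0.0438% (0.149%) in OG2 MEF. Within that limit Col6a3 stood at 396 TPM in ICR MEF and 139 in OG2 MEF, a ratio of 2.85 (95% interval 2.69 to 3.01), which Col6a1 and Col6a2 did not share (1.22 and 1.29). Col10a1, Col18a1, Col8a1 and Col12a1 stood 2.16, 1.77, 1.68 and 1.66 times higher in ICR MEF. Col2a1 was 1.35 times and Col11a1 1.12 times higher in OG2 MEF. With 1 library per strain these ratios cannot be told apart from differences between preparations. The effective length behind Col6a3, the length RSEM assigns from the isoforms it finds, ranged 2.54-fold over all 8 libraries, so its TPM carries that term across them. Between ICR and OG2 MEF the difference was also in the counts, at 4977 of 4805982 and 1770 of 5404041.

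The glia library, which by its name holds astrocytes and other non-neuronal brain cells, was compared with the brain regions and with the fibroblasts. Against the brain regions 10 collagens were higher and 1 was lower, against 2.64% and 3.45% of all genes and 6.19% and 8.1% of those reaching 10 TPM. Col11a2 alone reached 10 TPM in all 3 brain regions, so no other member could be called lower. The median difference was 0.82 over the 44 collagens and -0.17 over genes averaging at least 10 TPM. Both this comparison and the fibroblast one use the same 3 brain libraries, so their values are given side by side only. Col5a2 stood at 370.5 TPM in glia against 2.13, 2.71 and 6.81 in cerebellum, cortex and hippocampus, a fold of 54.4 (42.3 to 71.0). Col8a1 stood at 194.9 TPM against 0.76, 2.57 and 0.89, a fold of 75.9 (52.7 to 114). Col12a1 was 16.7-fold higher at 187 TPM. In all 3 genes the glia level lay above every brain region, as the call requires, and only that of Col8a1 lay within the fibroblast range. Col1a1 and Col1a2 were 11.4-fold and 8.72-fold higher, at 59.2 and 111 TPM, and Col11a1 and Col5a3 were 8.36-fold and 5.72-fold higher, where Col5a3 lost its call with 5 TPM added. The lower gene was Col11a2, at 0.96 TPM in glia, and it lost its call with 5 TPM added and with TMM factors (a composition scaling) of the counts or of the TPM. Without cerebellum the number lower was 3, with Col19a1 and Col25a1 added (5.02% of all genes).

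Of the 6 type IV genes, 1 was called between glia and the fibroblasts, and their summed level was no higher in glia (537 TPM, against 700.4 and 578 in the ICR and OG2 fibroblasts). That gene, Col4a6, a chain of smooth muscle and epithelial basement membranes, stood at 80.4 TPM in glia, against 2.68 and 2.09 in ICR and OG2 MEF, 0.58, 0.82 and 0.29 in the brain regions, 0.11 in the library labelled R1 ESC and 0.47 in neuron. Glia was thus the only library of the 8 above 3 TPM. The fold was 98.0 over the highest brain region (49.6 to 228) and 30.01 over the higher fibroblast library (22.5 to 40.9). Col4a5 stood at 179 TPM, 34.9-fold above the highest brain region and 3.92-fold above the 45.8 TPM of ICR MEF, just short of the call, which it met without that library. Col4a3 and Col4a4, the kidney and lung chains, reached 3.91 and 3.16 TPM in glia and no more than 0.87 elsewhere. Col4a1 stood at 204 TPM in glia, below both fibroblast libraries, and Col4a2 at 65.6 was 3.64-fold under the 238 TPM of OG2 MEF (3.41 to 3.88).

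Against both fibroblast libraries 2 collagens were higher in glia and 8 lower, where 3.6% and 1.05% of all genes (10% and 2.92% of those reaching 10 TPM) were so called. The number higher was 4 without ICR MEF, with Col18a1 and Col4a5 added (4.51% of all genes). The lower genes were Col1a1 (48.2-fold), Col3a1 (44.9-fold), Col6a2 (29.5-fold), Col1a2 (23.1-fold), Col6a3 (23.0-fold), Col5a1 (11.4-fold), Col6a1 (10.5-fold) and Col10a1, which had 1 count in glia and lost its call with 5 TPM added. The higher genes were Col4a6 and Col9a3, a cartilage FACIT chain that stood at 14.2 TPM in glia and 2.13 and 0.65 in the fibroblasts. The Col9a3 fold of 6.65 rests on 3 counts in ICR MEF (2.17 to 33.2), and the call was lost with 5 TPM added, on CPM and with TMM factors of the TPM. The median difference was -0.52 over the collagens and 0.42 over genes averaging at least 10 TPM, which ranged from -0.11 to 0.42 under the other scalings.

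Chains that assemble into one molecule were present in different proportions in glia. The TPM of Col5a2 was 10.4 times that of Col5a1 in glia (9.67 to 11.2), against 1.88 and 1.63 times in ICR and OG2 MEF and 0.22, 0.42 and 0.87 times in cerebellum, cortex and hippocampus. Col4a1 was 3.12 times Col4a2 in glia (2.92 to 3.33), 1.29 and 1.24 times in the fibroblasts and 0.75 to 0.96 times in the brain regions. For both pairs the glia interval lay above every other library's interval. Col4a5 was 2.23 times Col4a6 in glia (2.09 to 2.38), and 17.1 and 19.5 times in the fibroblasts. Col1a1 was 0.53 times Col1a2 in glia and 0.39 to 0.54 times in the brain regions, but 1.07 and 1.11 times in the fibroblasts. The type I molecule holds more Col1a1 than Col1a2 chains. Col6a3 was 1.00 times Col6a1 in ICR MEF, 0.43 times in OG2 MEF and 0.20 times or less in glia and the brain regions.

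**Figure D3:**
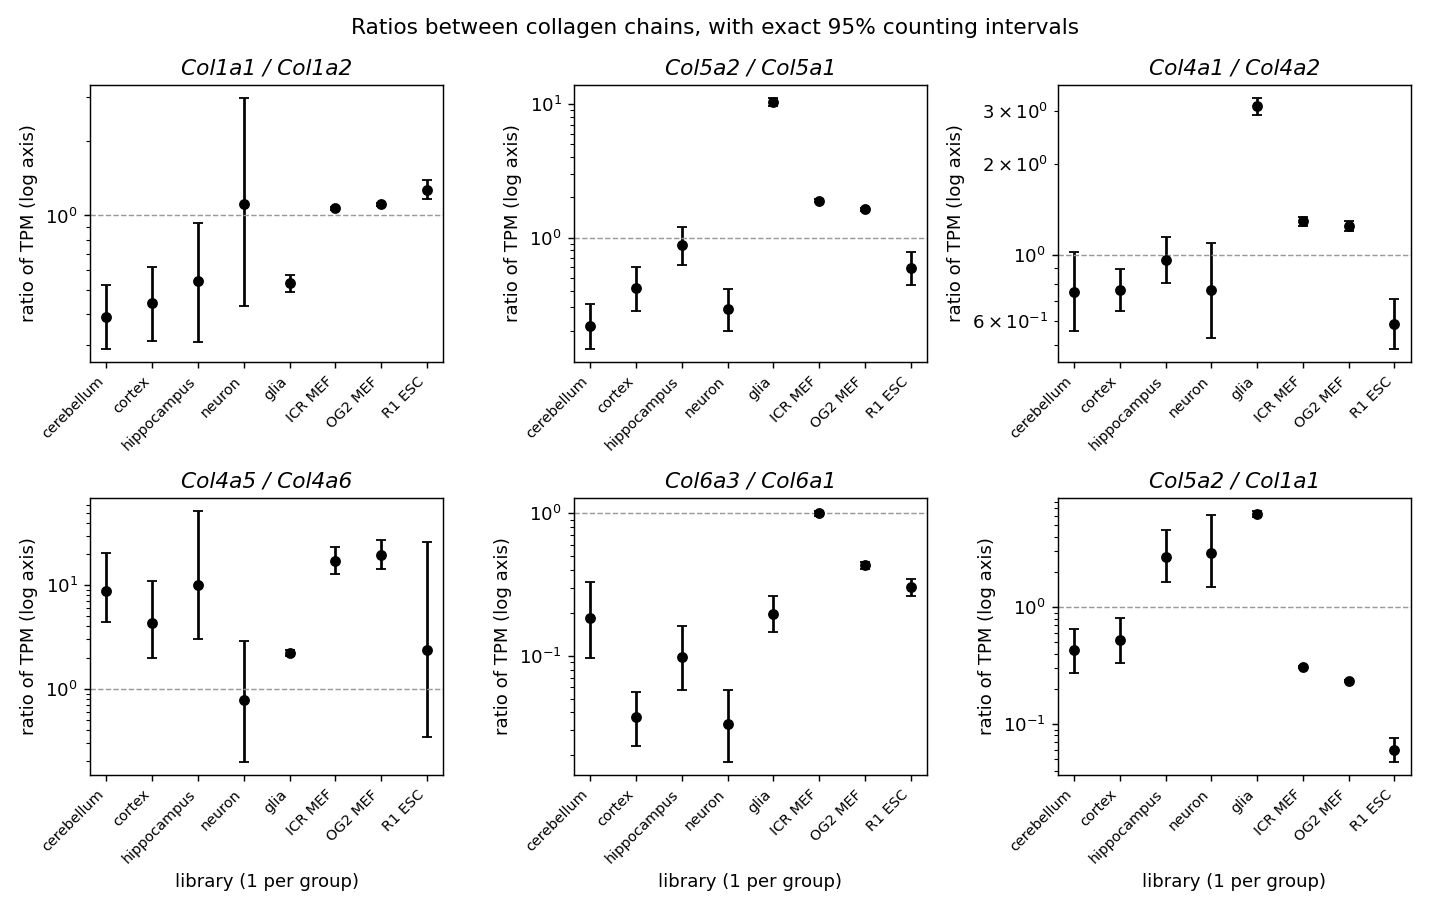
Ratio of TPM between paired collagen chains in each library (points, log axes, 1 library per group), with exact 95% intervals from expected counts (bars, counting error only) and a dashed line at 1. In glia Col5a2 over Col5a1 reaches 10.4 and Col4a1 over Col4a2 reaches 3.12, above all other libraries.

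Marker lists of other cell types did not all move the same way in glia. The 12 fibroblast markers summed to 12462 TPM in glia, beside 15647 and 13960 in the fibroblasts and 732 to 902 in the brain regions. Vim alone stood at 10414 and Fn1 at 1018 in glia. Of the 12, 7 were called higher in glia than in the brain regions and none lower, with a median difference of 3.31. Against both fibroblast libraries 6 were lower in glia (Fbn1, Lox, Postn, Prrx1, S100a4 and Twist2) and none higher, with a median of -2.86. The shares of all genes so called were 2.64% and 1.05%. The 12 pericyte and smooth muscle markers summed to 7090 TPM in glia, beside 7034 and 8390 in the fibroblasts and 188 to 221 in the brain regions, led by Acta2 at 4147 and Tagln at 2565. Of that list 3 were called higher in glia than in the brain regions (Acta2, Tagln and Cnn1, genes of contractile cells) and 2 lower (Rgs5 at 2.62 TPM against 63.8 to 73.6 and Vtn at 0.36 against 66.1 to 89.2), with a median difference of -0.54. Kcnj8 and Higd1b, both pericyte markers, were at 0 counts in glia. The 13 vascular and meningeal fibroblast markers summed to 35.4 TPM in glia, below the 134 to 212 of the brain regions, with 5 at 0 counts (Slc6a13, Slc22a6, Slc22a8, Dpep1 and Slc47a1). The 12 endothelial markers summed to 215 TPM in glia and 402 to 445 in the brain regions. None was called higher in glia and 3 lower (Cldn5, Flt1 and Ly6c1), beside 3.45% of all genes, with a median difference of -2.69. Cldn5, Pecam1 and Emcn were at 0 counts in glia, while Slco1a4 stood at 135 TPM against 61.7 to 79.4 in the brain regions. Of the 10 astrocyte markers, 2 were called higher in glia than in the brain regions (Aldh1l1 at 244 TPM and Sox9 at 94.4) and 2 lower (S100b at 6.02 and Slc1a2 at 33.0), with a median difference of -0.05, and Gfap stood at 1492 TPM. What share of the glia collagens came from which cells was not tested.

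The paired type IV genes lie head to head in the genome, each pair on opposite strands with their starts facing. On chromosome 8 the 5′ ends of Col4a1 (minus strand, from 11312826) and Col4a2 (plus strand, from 11312805) overlap by 22 bases. On the X chromosome Col4a6 and Col4a5 start 1308 bases apart. On chromosome 1 Col4a4 and Col4a3 are 71 bases apart, and that whole stretch is given below because it is all the sequence that separates the genes. It is from GRCm38, chr1:82586850-82586920, and reads 5′ to 3′ on the minus strand, with no capitals because no part is singled out. It thus runs from the Col4a3 side to the Col4a4 side, and its label names the pair, not the direction.
Col4a4 to Col4a3: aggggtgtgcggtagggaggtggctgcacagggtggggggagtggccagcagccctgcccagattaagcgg
Levels within a pair were not equal. In glia Col4a1 and Col4a2 stood at 204 and 65.6 TPM, Col4a5 and Col4a6 at 179 and 80.4, and Col4a3 and Col4a4 at 3.91 and 3.16, the last with a ratio of 1.24 (0.87 to 1.74). Because strandedness is not given in the sources used here, reads in the overlap of Col4a1 and Col4a2 cannot be assigned to a strand. The effective length of Col4a2 also ranged 1.53-fold across libraries.

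Among the brain regions, cerebellum had its own collagens. Col18a1, whose protein releases endostatin, had 54.5 TPM in cerebellum, while cortex had 3.39 and hippocampus 1.55. Col27a1, a fibrillar collagen of cartilage, stood at 18.1, 3.50 and 2.69 TPM. Col25a1, a transmembrane collagen of neurons that is found in amyloid plaques, showed the opposite order at 0.83, 40.7 and 39.8 TPM. By the calling rule 2 collagens were higher in cerebellum than in both other regions and 1 was lower, where 0.888% and 1.19% of all genes (2.25% and 3.01% of those reaching 10 TPM) were. The folds were 16.1 for Col18a1 (11.6 to 22.9), 5.17 for Col27a1 (3.73 to 7.33) and 48.2 in the other direction for Col25a1 (25.9 to 101). Without cortex the number higher was 4, with Col9a2 and Col9a3 added (1.27% of all genes), and without hippocampus the number lower was 3, with Col26a1 and Col6a1 added (1.9%). Col27a1 lost its call with 5 TPM added and with TMM factors of counts or TPM, while keeping its direction.

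Cartilage-type FACIT collagens were graded across the regions. From cerebellum through cortex to hippocampus, Col9a3 stood at 56.5, 22.8 and 9.70 TPM and Col9a2 at 18.6, 9.67 and 2.26, whereas Col9a1, the remaining chain of type IX, was at or under 1.01. Col19a1, a FACIT collagen made by some forebrain neurons, ran the other way at 5.65, 12.8 and 20.7 TPM, and Col23a1, a transmembrane collagen, stood at 7.13, 12.2 and 6.09. Col9a3 shares 234 exonic bases with Tcfl5 on the other strand and had split counts in 5 libraries, so its level is uncertain. Neither cortex nor hippocampus had a called collagen against the other regions, where 0.192% of all genes were higher and 0.0236% lower in cortex (0.486% and 0.0597% of those reaching 10 TPM), and 0.118% higher and 0.0471% lower in hippocampus (0.298% and 0.119%). Leaving out hippocampus, cortex had 3 higher (Col25a1, Col26a1 and Col6a1) and 2 lower (Col18a1 and Col27a1), beside 1.9% and 1.15% of all genes. Leaving out cortex, hippocampus had 1 higher (Col25a1) and 4 lower (Col18a1, Col27a1, Col9a2 and Col9a3), beside 1.67% and 1.27%. Col6a1 stood at 53.6 TPM in cortex, 8.37 in cerebellum and 19.3 in hippocampus. The cortex library also held 1252 TPM of choroid plexus markers, 1183 of it Ttr, against 76.7 and 85.0 in the other regions, and the part of such tissue in its collagen levels was not tested.

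**Figure D4:**
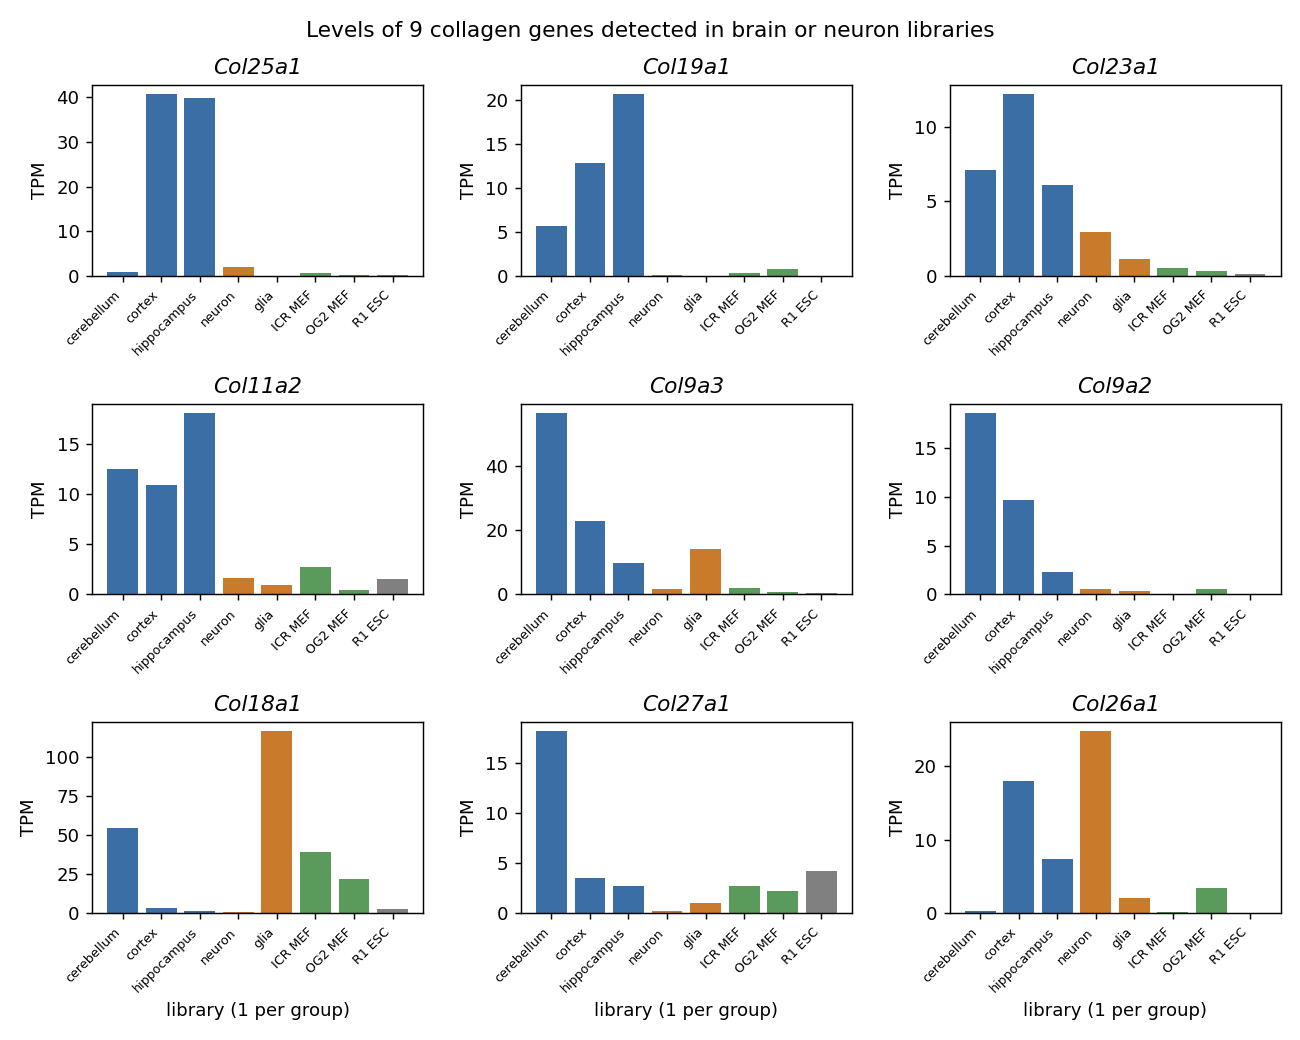
TPM of 9 collagen genes in each library (bars from 0, each panel with its own scale, 1 library per group, colours for brain regions, glia and neuron, fibroblasts and the library labelled R1 ESC). Col25a1 is near 40 TPM in cortex and hippocampus and under 2 TPM in every other library, and Col26a1 is highest in neuron at 24.8 TPM.

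The neuron library held few collagen transcripts. Against the 3 brain regions no collagen was higher and 1 was lower, where 0.676% and 6.58% of all genes (1.68% and 16.4% of those reaching 10 TPM) were. As in the glia comparison, the floor of 10 TPM in all 3 regions let no member but Col11a2 be called lower. The lower gene was Col11a2, at 1.65 TPM in neuron against 12.6, 10.9 and 18.1 in cerebellum, cortex and hippocampus, and it lost the call with 5 TPM added, on CPM and with either set of TMM factors. The number lower was 5 without cerebellum, with Col19a1, Col25a1, Col4a1 and Col4a2 added, and 3 without hippocampus, with Col1a2 and Col9a3 added, beside 8.18% and 7.35% of all genes. The collagen median of -1.10 lay beside a median of -1.07 over genes averaging at least 10 TPM, and with TMM factors of the TPM the values were -0.44 and -0.16.

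Col26a1, a secreted collagen with a short helix, led the neuron library. It stood at 24.8 TPM in neuron, 18.1 in cortex, 7.38 in hippocampus, 0.26 in cerebellum, 2.04 in glia, 0.14 and 3.39 in ICR and OG2 MEF and 0 in the library labelled R1 ESC. Neuron and cortex were the high libraries, and their ratio of 1.37 had an interval that included 1 (0.97 to 1.99). The counts behind these levels were 196 in neuron and 38.5 in cortex, because the effective length assigned to Col26a1 differed up to 2.75-fold between libraries. On CPM, which scale counts to the total and ignore length, Col26a1 and Col22a1 were called higher in neuron, beside 1.62% of all genes. Col25a1 and Col19a1 stood at 1.88 and 0.10 TPM in neuron, well under their cortex and hippocampus levels. Against glia, 16 collagens were lower in neuron and Col26a1 was higher (12.1-fold, 6.25 to 26.8), where 11.5% and 3.91% of all genes (30.5% and 10.4% of those reaching 10 TPM) were. The 16 included Col4a5 at 0.37 TPM in neuron (487-fold), Col5a2 at 1.95 (189.8-fold), Col4a6 at 0.47 (171-fold) and Col18a1 at 0.73 (160.3-fold).

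The library labelled R1 ESC, like the fibroblasts, had Col1a1 and Col1a2 as its highest collagens, at far lower levels. Against both fibroblast libraries 17 collagens were lower and none higher, where 13.7% and 1.38% of all genes (44.6% and 4.49% of those reaching 10 TPM) were. Col1a1 stood at 69.2 TPM, Col1a2 at 54.4, Col6a2 at 47.2 and Col6a1 at 43.6, while Col3a1, next after type I in the fibroblasts, stood at 7.23. Type I chains were 41.2-fold and 47.3-fold under the nearest fibroblast library, Col5a2 159-fold and Col3a1 127-fold, whereas Col6a2 was 4.14-fold and Col6a1 7.41-fold lower. Col6a2 lost its call with 5 TPM added, on CPM, with either set of TMM factors and without ribosomal protein genes. The collagen median was -1.70 and that of genes averaging at least 10 TPM -1.99. With TMM factors of the TPM these medians were -0.80 and -0.31, so which of them lay lower turned with the scaling. Under those factors 12 collagens were lower, without Col18a1, Col2a1, Col6a1, Col6a2 and Col6a3, beside 5.79% of all genes. Col15a1, a multiplexin of vessel and muscle basement membranes, stood at 11.01 TPM here, 7.84 in ICR MEF and 1.91 in OG2 MEF, and was called higher without ICR MEF (1.63% of all genes). The 12 fibroblast markers summed to 2389 TPM in this library, led by S100a4 at 1640 and Vim at 645.9. Of these, 10 were lower than in both fibroblast libraries and none higher, with a median difference of -4.19, beside 13.7% of all genes. The 10 epithelial markers summed to 190.4 TPM, with Krt14 at 142, and 2 were higher (Krt14 and Krt8) and none lower, beside 1.38% of all genes. The part of cells with either set of markers in the collagen levels was not tested.

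Genes that modify, fold and cross-link collagen chains were examined from 6 lists. Of the 5 lysyl oxidases, which cross-link fibrils, 5 were higher in the fibroblasts than in the brain regions and 4 in glia. As given above, 2.41% of all genes (5.68% of those reaching 10 TPM) were higher in the fibroblasts and 2.64% (6.19%) in glia. The median differences of this list were 6.50 and 4.18, where those over genes averaging at least 10 TPM were -0.68 and -0.17. Lox stood at 1232 and 1034 TPM in the fibroblasts, 36.4 in glia and 0.37 to 1.75 in the brain regions. Of 11 chaperone and export genes, 5 were higher in the fibroblasts (Creb3l1, Fkbp10, Fkbp7, Sec24d and Serpinh1) and 3 in glia (Fkbp10, Serpinh1 and Sparc), with medians of 2.79 and 1.55. Serpinh1, the collagen-specific chaperone HSP47, stood at 1755 and 1662 TPM in the fibroblasts, 565 in glia, 16.3 to 29.1 in the brain regions, 185 in the library labelled R1 ESC and 7.54 in neuron. Its order over the libraries was that of the fibroblasts first, then glia, then the library labelled R1 ESC.

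The counts of the remaining 4 lists stand beside the same shares, and those for lower genes were 6.14% (14.5%) in the fibroblasts and 3.45% (8.1%) in glia. Of 15 hydroxylases and glycosyltransferases, 5 were higher in the fibroblasts (Crtap, P3h1, P4ha3, P4hb and Plod3) and 5 in glia (Crtap, P3h2, P4ha3, P4hb and Plod2), with medians of 2.47 and 1.65. P3h2, a prolyl hydroxylase that acts on basement membrane collagen, stood at 40.5 TPM in glia, 4.23 and 5.23 in the fibroblasts and 0.99 to 4.75 in the brain regions. Of 10 processing genes 1 was higher in the fibroblasts and none in glia, with medians of 0.41 and 0.03. That gene was Pcolce, which enhances removal of the C-terminal propeptide. It stood at 720.6 and 716 TPM in the fibroblasts, 42.9 in glia and 8.40 to 14.1 in the brain regions. The library labelled R1 ESC had 839 TPM but a lower share of counts than either fibroblast library. Its Pcolce counts were 1038 of 2147004, against 2761 of 4805982 in ICR MEF and 3148 of 5404041 in OG2 MEF. Of 12 fibril-associated proteoglycans, 4 were higher in the fibroblasts (Aspn, Bgn, Lum and Ogn) and 5 in glia (Bgn, Fmod, Ogn, Omd and Prelp), where Dcn was lower at 2.92 TPM, and the medians were 1.12 and 0.93. Bgn stood at 3129 and 2567 TPM in the fibroblasts and Fmod at 401 in glia. Of 12 receptors, 5 were higher in the fibroblasts, with Adgrg1 lower, and 5 in glia, with medians of 0.38 and 1.37. Itga1, which pairs with Itgb1 to bind type IV collagen, stood at 88.0 TPM in glia against 2.71 to 3.91 in the brain regions, while the fibril receptor subunit Itga11 stood at 59.4 and 47.9 TPM in the fibroblasts and 1.92 in glia.

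**Figure D5:**
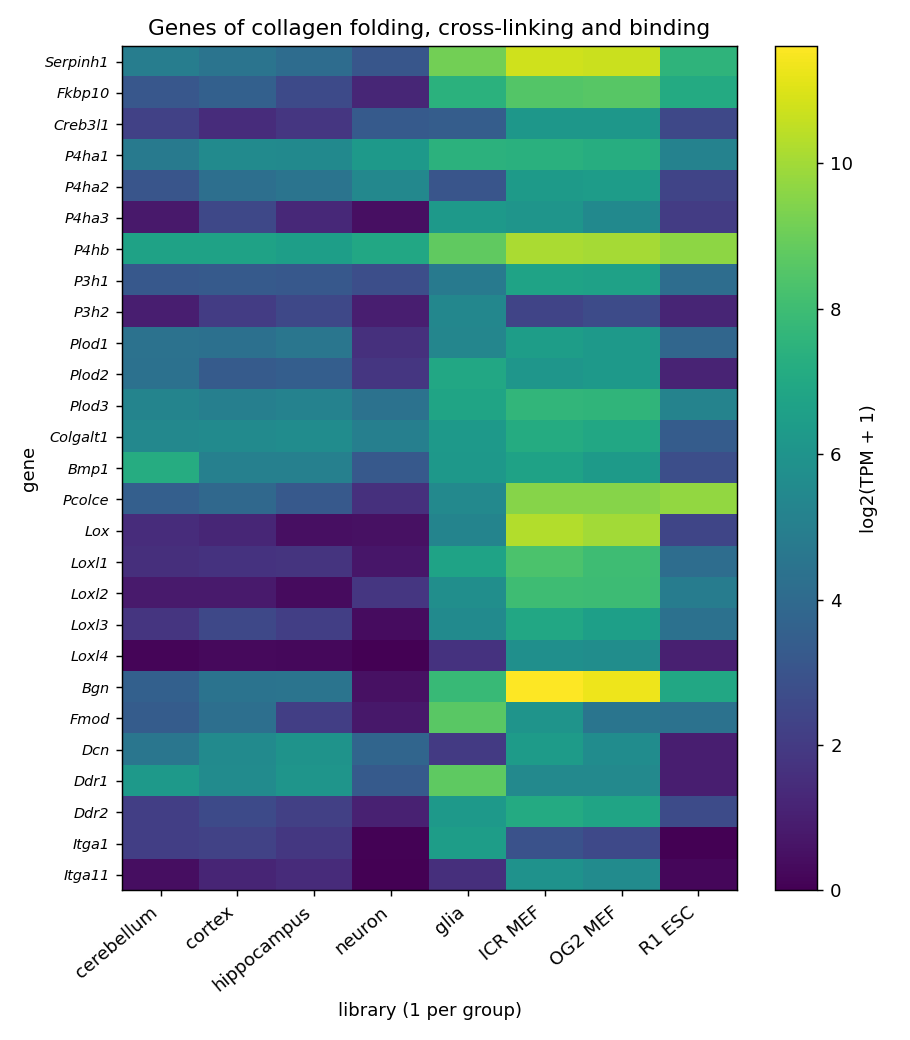
Level (log2 of TPM with 1 added, colour) of 27 genes of collagen folding, cross-linking and binding in each library, 1 library per group. Serpinh1, Lox and Bgn are brightest in the fibroblasts, and Itga1, P3h2 and Fmod are brightest in glia.

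Many members share a target site for the miR-29 family, which is known for repressing matrix genes. The microRNAs were not measured here, and their mature sequences, from RefSeq (GRCm38.p6), are printed to show the shared seed (bases 2 to 8, in capitals).
mmu-miR-29a-3p: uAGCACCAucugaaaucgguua
mmu-miR-29b-3p: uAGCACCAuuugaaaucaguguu
mmu-miR-29c-3p: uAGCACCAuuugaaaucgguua
The complement of the seed, TGGTGCT, was searched on the transcript strand in the 3′ UTR of each gene's longest coding transcript in GENCODE release M21. Of 42 collagens with an annotated 3′ UTR there, 24 held it (57.1%) and 11 held more than 1, against 2385 of 20159 other genes (11.8%). Per 1000 bases of 3′ UTR this came to 0.775 sites in collagens and 0.106 in the others, with median lengths of 965 and 811 bases. It was present in all 6 type IV genes (13 sites) and in 9 of 10 fibrillar genes (15 sites), in 3 of 9 FACIT, 2 of 6 type VI and none of 4 transmembrane genes, among which the 3′ UTR of Col25a1 is annotated with only 30 bases. The sites below belong to genes called higher in the fibroblasts or in glia than in the brain regions and are given 5′ to 3′ on the gene's strand with 8 bases on each side and the match in capitals. They lie at chr11:94952530-94952552 (Col1a1, plus), chr1:45348974-45348996 (Col3a1, plus), chr1:45374958-45374980 (Col5a2, minus), chr8:11199754-11199776 (Col4a1, minus) and chrX:141166507-141166529 (Col4a6, minus).
Col1a1 site: ggaatttcTGGTGCTatagaagc
Col3a1 site: tgtctcaaTGGTGCTataataaa
Col5a2 site: tttaatgaTGGTGCTaaaattat
Col4a1 site: tcacaacaTGGTGCTactccccc
Col4a6 site: catccatcTGGTGCTaacattcc
A match is a description of these letters, not of binding or of regulation. Col1a2, Col6a1 and Col12a1 had none in 3′ UTRs of 882, 767 and 2178 bases.

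In promoter windows from RefSeq (GRCm38.p6), 38 windows of 35 members matched by symbol, counting the 250 bases before the start. The GC box GGGCGG, searched on both strands, was present in 22 of 38 (57.9%), against 32.7% of all 32851 windows. TATAAA was present in 5 of 38 (13.2%, against 12.4%) and CCAAT in 13 of 38 (34.2%, against 33.8%), so only the GC box stood apart in share. Among the genes called in the fibroblasts or glia, for example, Col3a1 held TATAAA, Col1a2 held CCAAT and GGGCGG, and Col4a6 and Col8a1 held GGGCGG. Col1a1, Col2a1, Col5a2 and Col12a1, also called, had no matched window. Some windows overlap annotated exons, by 127 of 250 bases in Col1a2 and by all 250 in Col4a1 and Col4a2.

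The ranking of all 44 genes was compared between libraries as a description, since genes are not independent replicates and libraries share composition effects. Spearman's rho over the 44 genes, on log2 of TPM with 1 added, was 0.91 between the fibroblasts and 0.88 between cortex and hippocampus, but 0.57 between cerebellum and cortex. Glia correlated with OG2 MEF at 0.79 and ICR MEF at 0.75, and with cortex at 0.26 and hippocampus at 0.24. Neuron correlated with hippocampus at 0.71 and with glia at 0.28. The library labelled R1 ESC correlated with ICR MEF at 0.85 and with glia at 0.64.

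The remaining members were low. Of the 44 genes 29 reached 10 TPM in at least 1 library, and 15 did not. Among the latter Col14a1 peaked at 9.20 TPM and Col7a1, the anchoring fibril collagen of skin, at 8.31, both in ICR MEF, and Col8a2 at 8.77 in glia. Col17a1, the hemidesmosome collagen of skin, peaked at 5.36 in cerebellum. Col13a1, Col20a1, Col22a1, Col24a1, Col28a1, Col6a4, Col6a5, Col9a1, Col4a3 and Col4a4 peaked between 1.38 and 4.46 TPM. Col6a6 stayed under 1 TPM in all 8 libraries. By the library of their highest level, 19 members peaked in a fibroblast library (17 in ICR MEF), 13 in a brain region, 8 in glia, 3 in neuron and 1, Col15a1, in the library labelled R1 ESC. At 0 counts in at least 1 library were 14 members, and for a 5000-base gene 3 counts correspond to 0.184 to 0.377 TPM. Effective lengths differed by more than 1.5-fold between libraries in 8 members, up to 6.30-fold in Col16a1, a FACIT collagen at 97.1 and 69.8 TPM in the fibroblasts and 9.03 to 25.7 elsewhere.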

How the data were processed

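Per the labels' protocols, RNA was taken up in Trizol and 1 ug of total RNA went into Illumina TruSeq libraries. Bowtie, RSEM and the build mm10 are named in the submitters' processing notes, with no version, and neither annotation release nor strandedness is given. Per the file headers, the authors deposited 1 RSEM table per library that holds expected counts, TPM and effective lengths. From the deposited counts and effective lengths, 99.9% of TPM values of at least 10 could be recomputed within 1%, and 80.3% of expected counts were whole.

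Symbols were found for 29202 of 29713 gene identifiers. Because each group held 1 library, genes were called by size over all genes, with a floor of 10 TPM and a fold of 4 after adding 1 TPM, in 10 comparisons. Folds are TPM ratios between the nearest libraries, and their 95% intervals are exact (Clopper-Pearson) on expected counts. The collagen family was picked, and the gene lists drawn up, with earlier results of these data known, while the symbol alone set which genes are members. Every called collagen is given a value, the uncalled members are named by class or as low, and of pathway lists only called genes or the 4 most abundant are named. Alternatives were 0.1 or 5 TPM added, a floor of 1 TPM, counts scaled to the library total (CPM), TMM factors of counts or of TPM, TPM without ribosomal protein genes, thinning to 2146964 counts (seed 11), and leaving out each library. Coding sequences, 3′ UTRs and coordinates are from GENCODE release M21 (GRCm38). Work used Python 3.11.15, numpy 2.4.6, pandas 2.3.3, scipy 1.17.1, matplotlib 3.10.9, R 4.3.3 and edgeR 4.0.16, the last for TMM factors alone.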

Additional observations from a re-analysis of the deposited data

How the results depend on the processing

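No paired analysis was possible because each group held 1 library. None of the 375 log2 ratios of called collagens under the 5 other scalings reversed sign, where a ratio of 0 did not count as reversed. These genes had been called at 4-fold or more, which left little room for a reversal, so the tally says little about stability. For the counts of called collagens, a count of 0 that stayed 0 was taken as unchanged. By that measure 168 of 202 recomputed counts lay within 1.5 times the main count. The counts higher in the fibroblasts (15 to 19) and in glia (9 to 14) than in brain, higher in glia than in neuron (13 to 20), lower in glia than in the fibroblasts (7 to 11), or lower under the R1 ESC label than in the fibroblasts (12 to 19), were among them. In that order, the shares of all genes were 1.81% to 3.58%, 1.74% to 3.27%, 6.9% to 13.8%, 0.683% to 1.54% and 5.79% to 16.9%. Small counts moved, and the cause was not tested. With a floor of 1 TPM, 1 collagen was lower in the fibroblasts than in brain, 2 in glia, 2 in neuron and 2 in cerebellum. The shares of all genes, here and next in the order of the counts, were 7.62%, 4.26%, 8.29% and 1.56%. With CPM, 3 were lower in the fibroblasts, 2 lower in glia, 2 higher in neuron and 1 higher in the library labelled R1 ESC. Shares of all genes were 5.58%, 3.48%, 1.62% and 2.98%. With 5 TPM added, 0 were lower in glia and in neuron, 1 higher in glia than in the fibroblasts and 1 higher in cerebellum. Shares of all genes were 2.54% and 3.05%, 2.08% and 0.512%. With TMM factors of the counts, 0 were lower in glia and neuron and 1 was higher in cerebellum. Shares of all genes were 3.29% and 5.08%, and 0.761%. With TMM factors of the TPM, 0 were lower in glia and neuron, 1 was higher in glia than in the fibroblasts, 2 in the library labelled R1 ESC and 1 in cerebellum. Shares of all genes were 2.8% and 2.05%, 2.19%, 5.64% and 0.67%. Leaving out each library gave 0 to 2 lower in the fibroblasts than in brain, 1 to 3 lower in glia, 1 to 5 lower in neuron, 2 to 4 higher in glia than in the fibroblasts, 0 to 1 higher in the library labelled R1 ESC, 2 to 4 higher and 1 to 3 lower in cerebellum, 0 to 3 higher and 0 to 2 lower in cortex, and 0 to 1 higher and 0 to 4 lower in hippocampus. Over all genes, those lower in the library labelled R1 ESC numbered 4064, and 1721 with TMM factors of the TPM, where 1677 were higher in place of 409. Those higher in neuron than in brain numbered 201, and 689 with these factors.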
